A study of Mus musculus with 12 samples.

Results

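The genes described here are 42 genes of fatty acid metabolism, peroxisome proliferator-activated receptors (PPARs) and lipid droplets, measured by RNA sequencing in mouse peritoneal macrophages. They were chosen by name from the expression table, where all 42 were found among 24279 rows. A total of 39 stood at 1 TPM or more in at least 3 libraries and were tested, and the other 3 (Ppara, G0s2 and Pdk4) did not pass this filter. TPM is a level per gene corrected for transcript length and scaled to a fixed total in each library. By role the 42 are 3 receptors, 4 genes of fatty acid uptake and transport, 11 of synthesis and desaturation, 4 of activation, 5 of storage, 7 of lipolysis and 8 of oxidation.

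The macrophages, phagocytes of the abdominal cavity, came from wild-type (WT) mice or from mice without Pim1 (Pim1-/-), a serine/threonine kinase. All were cultured in RPMI with 10% fetal bovine serum, itself a source of lipid, and received PBS or oxidized low-density lipoprotein (oxLDL), a lipoprotein particle that enters macrophages by scavenger receptors, at 20 µg/mL over 8 h. Each of the 4 groups (WT PBS, WT oxLDL, Pim1-/- PBS and Pim1-/- oxLDL) held 3 libraries. The labels give neither the age of the mice, nor the allele behind the knockout, nor whether a group's libraries came from separate animals or cultures, so a p-value measures only the spread between these libraries, which may be technical.

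Fatty acids reach a macrophage from lipoproteins cut at its surface or in its lysosomes, or are made from acetyl coenzyme A. An acyl-CoA synthetase activates them, after which they are lengthened, desaturated, stored as triglyceride or cholesteryl ester in droplets, or oxidized in mitochondria. PPARs are nuclear receptors that fatty acids and their oxidized derivatives bind, and PPARγ, the product of Pparg, is known in macrophages for turning on genes of lipid uptake and storage. A macrophage whose cytosol fills with cholesteryl ester droplets is called a foam cell.

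Some libraries stood apart. WT PBS 3 had a highest Spearman correlation of 0.834 with any other library, against 0.925 or more for the rest, and held T and NK cell markers at a summed 465 TPM where the other libraries held 2.11 to 14.7 TPM. Its B cell, mast cell and erythroid markers summed to 37.8, 20.0 and 72.4 TPM. It also had 12867 rows at 0, against 8204 to 9964 in the other libraries. The nearest library to WT oxLDL 2 was of the other genotype (Pim1-/- oxLDL 1, Spearman 0.955), and so was that to WT oxLDL 3 (Pim1-/- oxLDL 3, Spearman 0.927). Pim1 itself stood at 56.0 to 365 TPM in WT and 10.2 to 47.8 TPM in Pim1-/- libraries, without overlap. The macrophage markers Lyz2, Cd68 and Csf1r were present in every library, at 98.5 TPM (Csf1r in Pim1-/- oxLDL 2) or more. Of markers of resident peritoneal macrophages, Timd4 reached at most 1.36 TPM, while Gata6 stood at 11.0, 21.9 and 11.4 TPM (WT PBS), 16.3, 1.12 and 1.38 (WT oxLDL), 3.97, 1.35 and 1.32 (Pim1-/- PBS) and 0.407, 0.839 and 0.253 (Pim1-/- oxLDL). Between genotypes, 3 of 10 macrophage markers were lower without overlap in Pim1-/- PBS (Adgre1, Csf1r and Gata6) and Cd68 was higher (21.1% and 6.62% of all tested genes). In oxLDL these 3, Itgam and Mertk were lower in Pim1-/-, and Cd68 and Icam2 higher (13% and 6.88% of all). With oxLDL Csf1r was lower and Fcgr1 and Timd4 higher without overlap in both genotypes, and Gata6 was lower in Pim1-/-. Over all tested genes, 34.7% were lower and 7.95% higher with oxLDL without overlap in WT, and 29.6% and 8.54% in Pim1-/-. The part of these differences in the results below was not tested. Of 11 adipocyte markers, 3 were at 0 in every library and 10 were under 1 TPM in every library. The rows Rn45s and Mir6236, which hold ribosomal RNA sequence, took 11.7% to 32.7% of TPM together, and the median over genes of a library divided by the average library ran from 1.09 to 1.49 in WT PBS, 0.561 to 0.825 in WT oxLDL, 0.762 to 1.23 in Pim1-/- PBS and 0.58 to 0.679 in Pim1-/- oxLDL. The median of all tested genes accordingly shifted by -0.70 (log2) with oxLDL in WT, -0.50 with oxLDL in Pim1-/-, -0.41 with the knockout in PBS and -0.16 with the knockout in oxLDL. Each result below is therefore given on TPM as deposited and, where the call differs, after dividing each library by that median ratio (median scaling).

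OxLDL lowered the RNA of many of these genes in WT cells, with Pparg, the desaturase Fads1, the cholesterol-esterifying enzyme Soat1 and the cholesteryl ester hydrolase Nceh1 falling most, and raised Acsl1, Dgat2 and Hilpda. In WT cells 20 of 39 fell (27% of all tested genes fell) and 3 rose (5.83% of all). In Pim1-/- cells 11 fell (7.8% of all tested genes) and 2 rose, Acsl1 and Dgat2 (4.45% of all). The 11 genes that fell in Pim1-/- cells had all fallen in WT cells: Pparg, Fabp4, Fads1, Elovl5, Scd2, Fasn, Soat1, Plin3, Nceh1, Lipa and Acadm. The median change of the 39 was -1.39 (log2) in WT and -1.02 in Pim1-/-, beside -0.70 and -0.50 over all tested genes. After median scaling 10 fell and 4 rose in WT, where 8.18% of all genes fell and 12.2% rose. In Pim1-/- 8 fell and 2 rose after median scaling, where 4.39% of all genes fell and 6.91% rose. The genes called lower in both genotypes before and after median scaling, and also after quantile normalization, numbered 8, namely Pparg, Fads1, Elovl5, Scd2, Fasn, Soat1, Nceh1 and Lipa. Acsl1 and Dgat2 were called higher in both genotypes on all 3 scales, though Dgat2 passed the filter only through its oxLDL libraries. Groups did not overlap for 22 lower and 3 higher members in WT (34.7% and 7.95% of all tested genes) and for 26 lower and 4 higher in Pim1-/- (29.6% and 8.54% of all). When each library was left out in turn, 13 of the 20 falls and all 3 rises in WT were called in every one of 12 fits, and so were 5 of the 11 falls and 1 of the 2 rises in Pim1-/-. The number lower in Pim1-/- was 6 without Pim1-/- oxLDL 2 and 7 without Pim1-/- oxLDL 3. Over all tested genes it dropped too, from 982 of 12594 to 315 of 12544 and 304 of 12554.

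**Figure D1:**
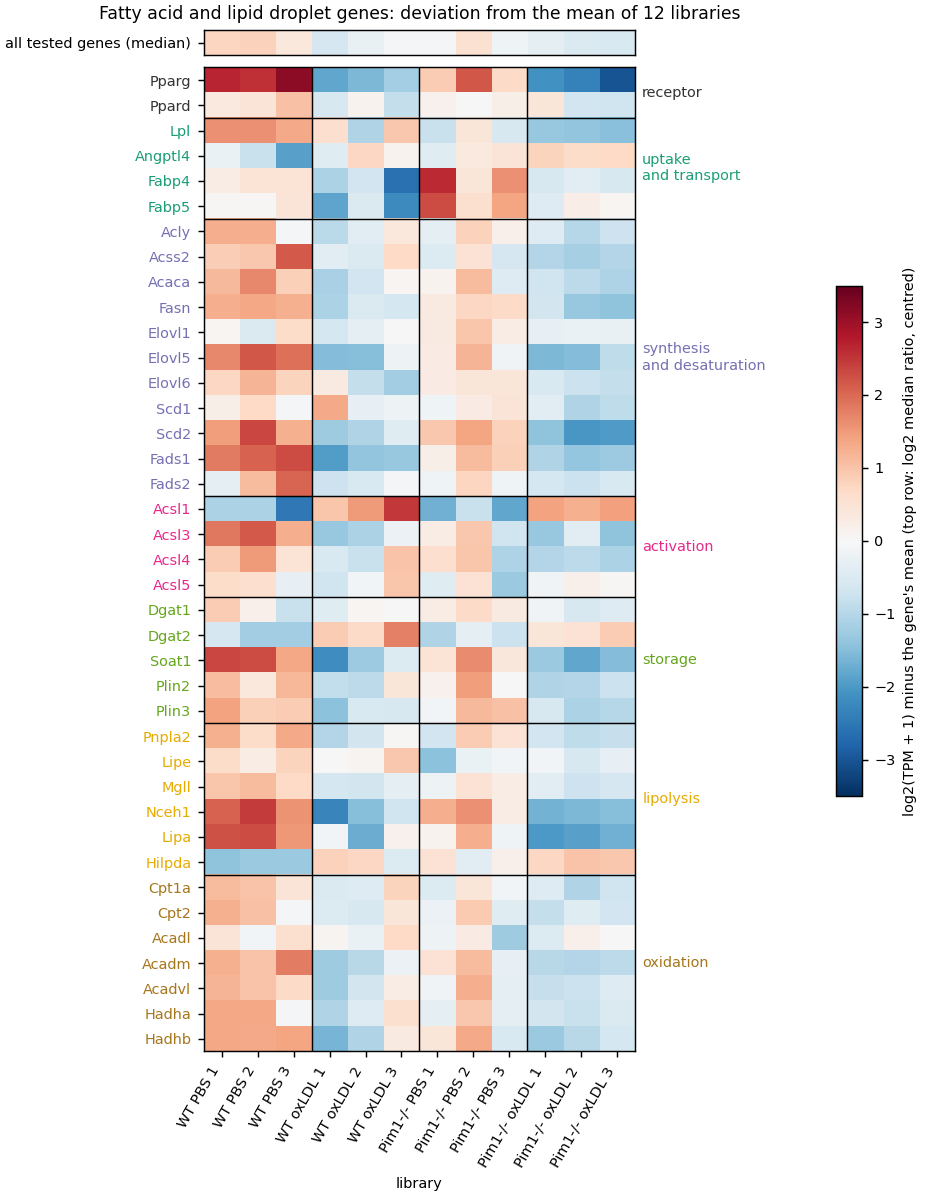
Deviation of each tested member, in log2(TPM + 1), from its own mean over the 12 libraries (columns), by role (rows), with the centred log2 median ratio of each library on top. Pparg, Fads1, Soat1 and Nceh1 are high in WT PBS and low in both oxLDL groups, Acsl1 and Dgat2 are the reverse, and many other members follow the top row.

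Pparg was the member with the largest fall. It stood at 64.8, 60.2 and 91.2 TPM (WT PBS), 1.98, 2.55 and 3.57 (WT oxLDL), 18.3, 46.5 and 15.5 (Pim1-/- PBS) and 1.43, 1.03 and 0.277 (Pim1-/- oxLDL). The oxLDL libraries of both genotypes lay below every PBS library, and in PBS every Pim1-/- library lay below every WT library. The mean went from 72.1 ± 16.7 to 2.70 ± 0.806 TPM (SD, n = 3) in WT, a 26.7-fold lower mean, and from 26.8 ± 17.2 to 0.913 ± 0.585 TPM in Pim1-/-. On the log2(TPM + 1) scale, which understates the change of low genes, the change was -4.30 (SE 0.46, adjusted p = 1.74e-05) in WT and -3.74 (SE 0.46, adjusted p = 8.67e-05) in Pim1-/-. In bulk RNA, fewer cells of a type and less RNA per cell cannot be told apart, here and in every result below. Ppard, the broadly expressed relative, stood at 5.81, 6.35 and 9.88 TPM (WT PBS), 2.59, 4.80 and 2.00 (WT oxLDL), 4.95, 4.35 and 5.17 (Pim1-/- PBS) and 6.12, 2.36 and 2.31 (Pim1-/- oxLDL). Its change with oxLDL was -1.04 (SE 0.43, adjusted p = 0.0727) in WT and -0.44 (SE 0.43, adjusted p = 0.524) in Pim1-/-, neither past the test. Ppara, known for driving fatty acid oxidation in liver, was at 0.147, 0.0175 and 1.21 TPM (WT PBS), 0.0286, 0.0228 and 0 (WT oxLDL), 0.0178, 0.0382 and 0 (Pim1-/- PBS) and 0.0250, 0.00719 and 0.0108 (Pim1-/- oxLDL), and its only value above 1 TPM lay in WT PBS 3, the library with lymphocyte markers.

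Pparg (chromosome 6, 115360951 to 115490399, GRCm38, GENCODE M21) has 3 promoter windows in the RefSeq table used here (GRCm38.p6), each from 250 bases before to 50 after a transcript start. The windows of the first 2 starts each hold the nuclear receptor core AGGTCA, shown in capitals at 28 and 9 bases before the start; they are printed because Pparg led the response and because these letters are the ones its own product is known to bind as a direct repeat.
Pparg start 1, chr6:115360894-115361193, plus strand: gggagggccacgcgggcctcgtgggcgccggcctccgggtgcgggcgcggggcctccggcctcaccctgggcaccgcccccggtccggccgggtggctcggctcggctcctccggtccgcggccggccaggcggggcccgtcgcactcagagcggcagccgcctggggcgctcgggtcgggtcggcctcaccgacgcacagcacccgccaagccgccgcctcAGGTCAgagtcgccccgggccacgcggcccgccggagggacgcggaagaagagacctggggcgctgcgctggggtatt
Pparg start 2, chr6:115362099-115362398, plus strand: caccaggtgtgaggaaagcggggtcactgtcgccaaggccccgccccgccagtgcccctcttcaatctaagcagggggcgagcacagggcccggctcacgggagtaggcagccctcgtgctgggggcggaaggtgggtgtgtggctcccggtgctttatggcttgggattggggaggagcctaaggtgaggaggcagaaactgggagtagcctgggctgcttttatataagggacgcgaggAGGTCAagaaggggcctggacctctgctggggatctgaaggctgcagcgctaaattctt
Over 40 windows of the 33 members found in the RefSeq table, AGGTCA was present on either strand in 9 (22.5%), against 16.3% of 32851 windows of all genes. These 9 belonged to Pparg, Acly, Elovl1, Elovl6, Plin2, Cpt1a, Acadm and Acadvl. The full direct repeat AGGTCANAGGTCA, which contains the core, was in none of the 40 and in 0.0396% of all windows, and the repeat with a 4-base spacer, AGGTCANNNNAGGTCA, was in none and in 0.0152%. A match describes these letters only, and a gene value does not show which start was used.

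Among the uptake and transport genes, the fatty acid chaperones Fabp4 and Fabp5 fell with oxLDL in WT, and Fabp4 fell in Pim1-/-. Lpl, the lipase that cuts triglyceride in lipoproteins, stood at 3096, 3073 and 2523 TPM (WT PBS), 1522, 492 and 1961 (WT oxLDL), 590.1, 1369 and 689 (Pim1-/- PBS) and 406, 391 and 369 (Pim1-/- oxLDL). Its WT oxLDL and PBS libraries did not overlap, WT oxLDL 2 lay far below the other WT oxLDL libraries, and every Pim1-/- oxLDL library was below every other library. The change was -1.34 (SE 0.51, adjusted p = 0.0570) in WT and -1.08 (SE 0.51, adjusted p = 0.186) in Pim1-/-, neither past the test. Fabp5 stood at 719.5, 707 and 948 TPM (WT PBS), 192, 484 and 147 (WT oxLDL), 3382, 1015 and 1808 (Pim1-/- PBS) and 507, 817 and 721 (Pim1-/- oxLDL), and Fabp4 at 129, 151 and 151 TPM (WT PBS), 49.4, 67.3 and 16.8 (WT oxLDL), 662, 144 and 330.0 (Pim1-/- PBS) and 72.1, 83.9 and 72.8 (Pim1-/- oxLDL). Both were highest in Pim1-/- PBS 1 and lowest in WT oxLDL 3. With oxLDL Fabp5 changed by -1.71 (SE 0.52, adjusted p = 0.0226) in WT and -1.46 (SE 0.52, adjusted p = 0.0849) in Pim1-/-. Fabp4 changed by -1.87 (SE 0.55, adjusted p = 0.0194) and -2.04 (SE 0.55, adjusted p = 0.0269). After median scaling none of these passed, with -0.77 (adjusted p = 0.407) for Fabp5 and -0.95 (adjusted p = 0.347) for Fabp4 in WT and -1.47 (adjusted p = 0.210) for Fabp4 in Pim1-/-. Quantile normalization called Fabp5 lower in both genotypes (adjusted p = 0.0155 and 0.0312) and Fabp4 in Pim1-/- (adjusted p = 0.0480) but not in WT (adjusted p = 0.0756). The call of Fabp5 in WT was lost without WT PBS 1 (0.0520), WT oxLDL 1 (0.0811) or WT oxLDL 3 (0.0696), values being adjusted p. That of Fabp4 was lost in WT without WT PBS 2 (0.0538) or WT oxLDL 3 (0.0651) and in Pim1-/- without Pim1-/- PBS 1 (0.0950), Pim1-/- PBS 3 (0.0511), Pim1-/- oxLDL 1 (0.0701), Pim1-/- oxLDL 2 (0.0768) or Pim1-/- oxLDL 3 (0.0962). Both chaperones are also known as adipocyte genes. Of the 11 adipocyte markers, 3 (Adipoq, Cidea and Cfd) were at 0 in every library. Plin4 was the only one to reach 1 TPM, and did so in WT libraries only. Plin1 was above 0 in every Pim1-/- PBS library and at 0 in every WT library. Whether adipocyte RNA had a part in the Fabp4 and Fabp5 values was not tested. Angptl4, a secreted inhibitor of Lpl named here after its values were seen, stood at 10.3, 6.63 and 2.52 TPM (WT PBS), 8.73, 20.5 and 13.3 (WT oxLDL), 8.77, 15.8 and 16.9 (Pim1-/- PBS) and 21.4, 19.5 and 20.2 (Pim1-/- oxLDL). Its change in WT was 1.10 (SE 0.47, adjusted p = 0.0859) on deposited TPM and 1.95 (adjusted p = 0.00470) after median scaling.

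**Figure D2:**
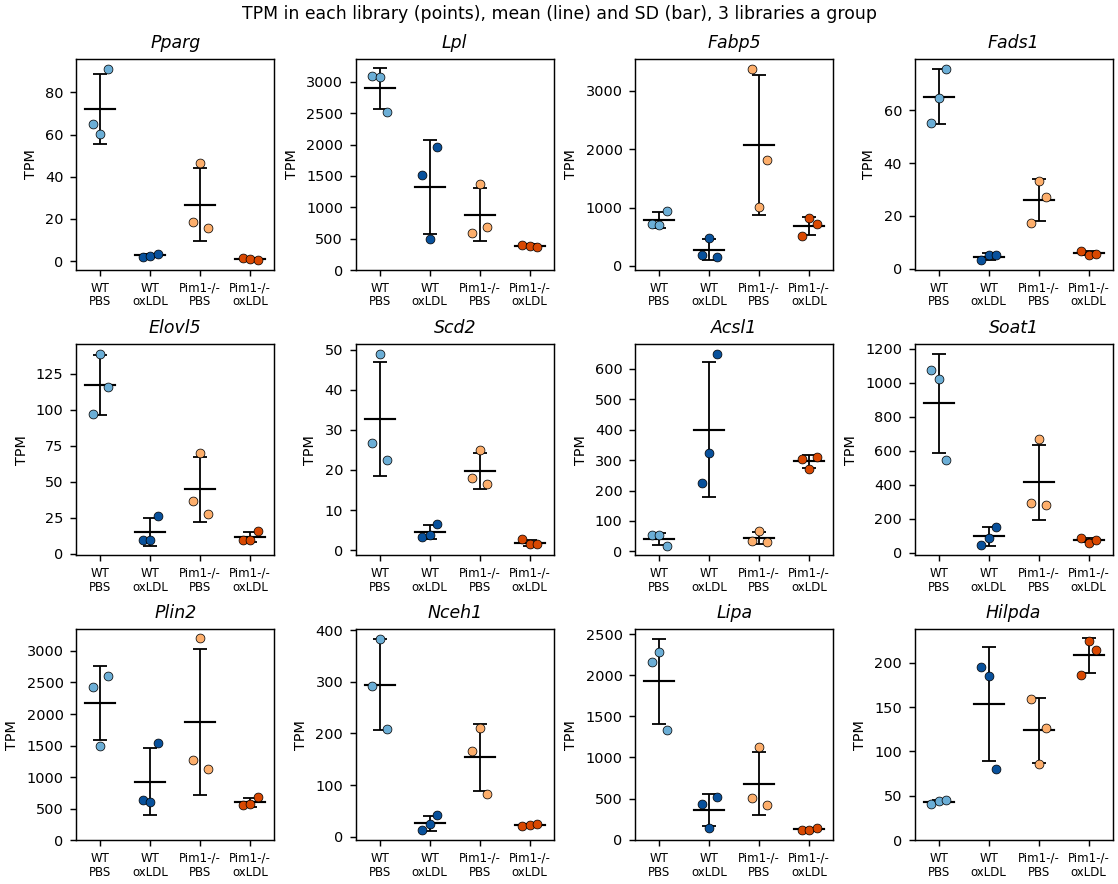
TPM (y axis, linear) of 12 members in each library of the 4 groups (x axis), with the group mean (line) and SD (bar). Pparg, Fads1, Elovl5, Soat1 and Nceh1 are low in all 6 oxLDL libraries, Acsl1 is high in all 6, and Fabp5 is spread from 1015 to 3382 TPM in Pim1-/- PBS.

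In synthesis and desaturation, 7 of 11 genes fell with oxLDL in WT (27% of all tested genes) and 4 in Pim1-/- (7.8% of all), and none rose. After median scaling 4 fell in each genotype (8.18% and 4.39% of all). The 4 that fell in both genotypes, Fads1, Elovl5, Scd2 and Fasn, also did so after median scaling. Fads1, a desaturase that makes polyunsaturated fatty acids such as arachidonic acid, stood at 55.1, 64.8 and 75.8 TPM (WT PBS), 3.08, 5.08 and 5.31 (WT oxLDL), 17.3, 33.2 and 27.0 (Pim1-/- PBS) and 6.63, 5.12 and 5.49 (Pim1-/- oxLDL). Every oxLDL library lay below every PBS library. The change was -3.61 (SE 0.37, adjusted p = 1.44e-05) in WT and -1.95 (SE 0.37, adjusted p = 0.00327) in Pim1-/-. The fall differed between genotypes by 1.66 (SE 0.53), which was not past the test over all genes (adjusted p = 0.986). Elovl5, which lengthens polyunsaturated fatty acids, stood at 96.9, 139 and 116 TPM (WT PBS), 9.72, 9.90 and 26.3 (WT oxLDL), 36.8, 69.8 and 27.4 (Pim1-/- PBS) and 9.36, 9.79 and 15.6 (Pim1-/- oxLDL). It changed by -2.99 (SE 0.46, adjusted p = 0.000397) in WT and -1.79 (SE 0.46, adjusted p = 0.0211) in Pim1-/-. Without Pim1-/- PBS 2 (0.0988), Pim1-/- oxLDL 1 (0.0690) or Pim1-/- oxLDL 2 (0.0949) the Pim1-/- call of Elovl5 was lost, the values being adjusted p. Scd2, a desaturase that places the first double bond in saturated fatty acids, stood at 26.8, 49.0 and 22.6 TPM (WT PBS), 3.19, 3.83 and 6.49 (WT oxLDL), 18.1, 24.9 and 16.4 (Pim1-/- PBS) and 2.73, 1.44 and 1.50 (Pim1-/- oxLDL). Its groups did not overlap between PBS and oxLDL in either genotype, with changes of -2.59 (SE 0.42, adjusted p = 0.000557) in WT and -2.86 (SE 0.42, adjusted p = 0.000409) in Pim1-/-. Fasn, which makes palmitate, stood at 19.4, 20.5 and 19.1 TPM (WT PBS), 2.90, 4.93 and 4.56 (WT oxLDL), 9.51, 13.0 and 12.3 (Pim1-/- PBS) and 4.45, 2.40 and 2.20 (Pim1-/- oxLDL). It changed by -2.03 (SE 0.37, adjusted p = 0.00135) in WT and -1.68 (SE 0.37, adjusted p = 0.00890) in Pim1-/-, where the call was lost without Pim1-/- oxLDL 2 (0.0608) or Pim1-/- oxLDL 3 (0.0636).

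The other 3 genes of this group that fell in WT were Acaca (-1.78), which makes malonyl coenzyme A, Elovl6 (-1.47), which lengthens palmitate, and Acss2 (-1.39), which makes acetyl coenzyme A from acetate. None of these 3 passed after median scaling (adjusted p = 0.0592, 0.236 and 0.373), and each call was lost when single libraries were left out. That of Acaca was lost without WT oxLDL 1 (0.0536). That of Elovl6 was lost without WT PBS 2 (0.0554), WT oxLDL 2 (0.0622) or WT oxLDL 3 (0.0549). That of Acss2 was lost without any of 7 libraries, with adjusted p of up to 0.139 without WT oxLDL 2, and its change turned to 0.18 (adjusted p = 0.772) under median scaling without WT PBS 3 and WT oxLDL 2. Exons of Acss2 overlap those of Gss and Ggt7 on the other strand, and how the counting used strand was not given in the sources used here, so its level is uncertain. Elovl6 was tested only because of its PBS libraries, where it was higher. Acly, Fads2, Elovl1 and Scd1 did not pass in either genotype. Scd1 stood at 11.0, 16.1 and 9.15 TPM (WT PBS), 25.3, 7.53 and 8.24 (WT oxLDL), 8.42, 11.9 and 13.3 (Pim1-/- PBS) and 7.02, 4.05 and 4.60 (Pim1-/- oxLDL), with WT oxLDL 1 highest, and its change in WT was 0.00 (SE 0.46, adjusted p = 1.000). Elovl1, which makes very long saturated chains and shares exon bases with Cdc20, stayed between 73.2 and 224 TPM in all 12 libraries.

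Since a ratio of 2 genes within a library does not depend on the scaling, ratios of related genes were also described, with no test. Scd2 over Scd1 was 2.44, 3.05 and 2.47 (WT PBS), 0.126, 0.508 and 0.788 (WT oxLDL), 2.15, 2.10 and 1.24 (Pim1-/- PBS) and 0.388, 0.355 and 0.327 (Pim1-/- oxLDL). All 6 PBS libraries thus held more Scd2 than Scd1, and all 6 oxLDL libraries held less. Fads1 over Fads2 was 12.8, 4.86 and 2.87 (WT PBS), 1.00, 1.41 and 0.991 (WT oxLDL), 3.44, 3.24 and 5.40 (Pim1-/- PBS) and 1.94, 1.74 and 1.51 (Pim1-/- oxLDL). The oxLDL libraries all lay below the PBS libraries of both genotypes.

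Of the 4 acyl-CoA synthetases, which join fatty acids to coenzyme A, Acsl1 rose with oxLDL in both genotypes while Acsl3 fell in WT. Acsl1 stood at 53.4, 52.9 and 19.6 TPM (WT PBS), 226, 325 and 649 (WT oxLDL), 35.1, 66.7 and 31.7 (Pim1-/- PBS) and 305, 272 and 311 (Pim1-/- oxLDL). The 6 oxLDL libraries all lay above the 6 PBS libraries, and the mean was 9.53-fold higher in WT and 6.65-fold higher in Pim1-/-. The change was 3.21 (SE 0.49, adjusted p = 0.000373) in WT and 2.78 (SE 0.49, adjusted p = 0.00185) in Pim1-/-. Acsl3, a synthetase of the endoplasmic reticulum and droplet surface, stood at 12.6, 15.7 and 8.00 TPM (WT PBS), 0.500, 0.732 and 2.27 (WT oxLDL), 3.47, 6.20 and 1.31 (Pim1-/- PBS) and 0.493, 1.83 and 0.424 (Pim1-/- oxLDL). It changed by -2.64 (SE 0.50, adjusted p = 0.00172) in WT and -1.21 (SE 0.50, adjusted p = 0.132) in Pim1-/-, and shares exon bases with Utp14b on the same strand. Acsl3 was tested only because of its PBS libraries, where it was higher. Acsl4, known for activating arachidonic acid, ranged from 14.3 to 92.0 TPM, and Acsl5 from 28.8 to 143 TPM; neither passed in either genotype. Acsl1 made up 22.4, 19.7 and 14.8% of the summed TPM of the 4 synthetases in the WT PBS libraries, and 77.3, 79.0 and 75.6% after oxLDL. In Pim1-/- it made up 24.8, 27.9 and 41.5% without and 78.8, 73.1 and 77.9% with oxLDL. Such shares do not depend on the scaling of a library, and their means were 19.0% and 77.3% in WT and 31.4% and 76.6% in Pim1-/-, given as a description with no test.

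Acsl1 (chromosome 8, 46471037 to 46536051) has 2 windows in the RefSeq table, and the second was the only window of the members that held the sterol regulatory element core TCACNCCAC, in capitals below as it reads on the opposite strand, 76 bases before the start. It is shown because Acsl1 was the member with the largest rise.
Acsl1 start 2, chr8:46490716-46491015, plus strand: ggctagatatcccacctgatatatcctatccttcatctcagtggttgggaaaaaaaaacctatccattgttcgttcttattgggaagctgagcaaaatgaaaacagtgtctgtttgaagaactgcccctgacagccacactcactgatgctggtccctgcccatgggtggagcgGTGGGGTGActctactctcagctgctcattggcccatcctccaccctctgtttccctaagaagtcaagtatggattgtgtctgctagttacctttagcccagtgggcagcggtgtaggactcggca
That core was in 1.24% of all windows, and the other genes of synthesis and desaturation, among them Fasn, Fads1 and Scd2, held none in the windows searched or had no window in the table.

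In storage, Soat1 and Plin3 fell with oxLDL in both genotypes and Dgat2 rose in both. Soat1, which esterifies cholesterol for droplets, stood at 1074, 1021 and 545 TPM (WT PBS), 46.0, 87.6 and 152 (WT oxLDL), 292, 668 and 278 (Pim1-/- PBS) and 85.6, 59.1 and 73.7 (Pim1-/- oxLDL). No oxLDL library reached the PBS libraries, and the change was -3.29 (SE 0.49, adjusted p = 0.000330) in WT and -2.38 (SE 0.49, adjusted p = 0.00595) in Pim1-/-. Dgat2, one of the enzymes of the last step of triglyceride synthesis, was low everywhere, at 0.561, 0 and 0 TPM (WT PBS), 3.33, 2.70 and 7.00 (WT oxLDL), 0.122, 0.891 and 0.400 (Pim1-/- PBS) and 2.11, 2.32 and 3.31 (Pim1-/- oxLDL). It was above 1 TPM in all 6 oxLDL libraries and below 1 in all 6 PBS libraries, with 2 WT PBS libraries listed at 0, so no fold is given. Dgat2 was thus tested only because of the groups in which it was high. On the log2(TPM + 1) scale the difference was 2.12 (SE 0.40, adjusted p = 0.00174) in WT and 1.30 (SE 0.40, adjusted p = 0.0487) in Pim1-/-. The Pim1-/- call was lost in 10 of 12 fits that left out a library, with adjusted p of 0.0552 to 0.2 and the highest without Pim1-/- oxLDL 3. Dgat1, which carries out the same step, ranged from 11.1 to 37.3 TPM and did not pass. Dgat1 over Dgat2 in log2(TPM + 1) was 3.59 to 4.62 in the PBS libraries and 1.37 to 2.62 in the oxLDL libraries. With Dgat2 below 1 TPM in PBS, the added 1 makes up most of its term there, so this ratio still depends on library scaling. Plin3, a droplet coat protein, stood at 339, 229.6 and 239 TPM (WT PBS), 46.8, 88.7 and 86.7 (WT oxLDL), 119, 279 and 259 (Pim1-/- PBS) and 86.9, 58.5 and 63.5 (Pim1-/- oxLDL). It changed by -1.88 (SE 0.42, adjusted p = 0.00478) in WT and -1.57 (SE 0.42, adjusted p = 0.0262) in Pim1-/-, and passed in neither after median scaling (adjusted p = 0.0756 and 0.0960). Its Pim1-/- call was lost without Pim1-/- PBS 2 (0.103), Pim1-/- PBS 3 (0.0595), Pim1-/- oxLDL 2 (0.120) or Pim1-/- oxLDL 3 (0.109). Plin2, the main droplet coat protein of macrophages, named here after its values were seen, stood at 2423, 1500.0 and 2596 TPM (WT PBS), 630.0, 610.2 and 1546 (WT oxLDL), 1271, 3204 and 1133 (Pim1-/- PBS) and 554, 568 and 685 (Pim1-/- oxLDL). WT PBS and WT oxLDL overlapped, and the change was -1.33 (SE 0.50, adjusted p = 0.0563) in WT and -1.47 (SE 0.50, adjusted p = 0.0728) in Pim1-/-, where the groups did not overlap. Quantile normalization called Plin2 lower in both genotypes (adjusted p = 0.0258 and 0.0242), and median scaling in neither (adjusted p = 0.574 and 0.256).

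**Figure D3:**
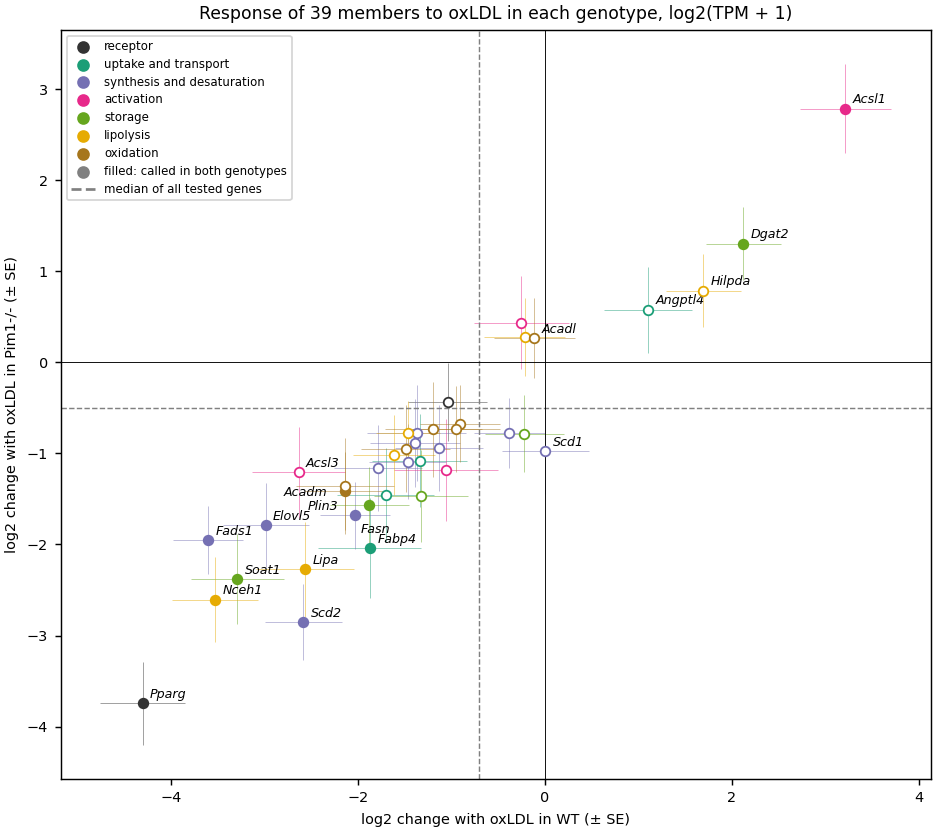
Log2 change of each of the 39 members with oxLDL in WT (x axis) and in Pim1-/- (y axis), with SE bars, coloured by role; filled points were called in both genotypes and dashed lines are the median of all tested genes. Pparg lies at the lower left and Acsl1 at the upper right; the 2 axes share no library.

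In lipolysis, Nceh1 and Lipa fell with oxLDL in both genotypes, Pnpla2 and Mgll fell in WT, and Hilpda rose in WT. Nceh1, which hydrolyses cholesteryl ester in the cytosol, stood at 292, 383 and 208 TPM (WT PBS), 13.2, 23.8 and 42.0 (WT oxLDL), 167, 211 and 82.7 (Pim1-/- PBS) and 21.1, 22.8 and 24.0 (Pim1-/- oxLDL). Its PBS and oxLDL libraries did not overlap, and it changed by -3.53 (SE 0.46, adjusted p = 0.000105) in WT and -2.61 (SE 0.46, adjusted p = 0.00200) in Pim1-/-. Lipa, the lysosomal acid lipase, stood at 2166, 2279 and 1335 TPM (WT PBS), 435, 139.9 and 517 (WT oxLDL), 503, 1125 and 422 (Pim1-/- PBS) and 114, 125 and 146 (Pim1-/- oxLDL). It changed by -2.57 (SE 0.52, adjusted p = 0.00264) in WT and -2.27 (SE 0.52, adjusted p = 0.0109) in Pim1-/-, where the call was lost without Pim1-/- PBS 2 (0.0529). Soat1 and Nceh1, which act in opposite directions on cholesterol, kept a ratio of 3.67, 2.66 and 2.63 (WT PBS), 3.48, 3.68 and 3.62 (WT oxLDL), 1.75, 3.17 and 3.37 (Pim1-/- PBS) and 4.05, 2.60 and 3.07 (Pim1-/- oxLDL). Hilpda, a small inhibitor of the triglyceride lipase encoded by Pnpla2, stood at 41.1, 44.6 and 44.8 TPM (WT PBS), 195, 186 and 79.9 (WT oxLDL), 159, 85.7 and 127 (Pim1-/- PBS) and 186, 225 and 214 (Pim1-/- oxLDL). The 3 WT PBS libraries lay within 41.1 to 44.8 TPM, below all 9 other libraries. It changed by 1.69 (SE 0.40, adjusted p = 0.00664) in WT and 0.79 (SE 0.40, adjusted p = 0.218) in Pim1-/-, a difference between responses of -0.90 (SE 0.57, adjusted p = 0.986). Pnpla2, which cuts the first fatty acid from triglyceride, stood at 135, 88.8 and 142 TPM (WT PBS), 27.3, 35.9 and 57.7 (WT oxLDL), 34.9, 104 and 80.7 (Pim1-/- PBS) and 35.1, 30.1 and 31.8 (Pim1-/- oxLDL). It changed by -1.61 (SE 0.44, adjusted p = 0.0136) in WT, a call lost without WT oxLDL 1 (0.0599) and after median scaling (-0.69, adjusted p = 0.229), and by -1.02 (SE 0.44, adjusted p = 0.147) in Pim1-/-. Mgll, which cuts monoacylglycerol, changed by -1.46 in WT (adjusted p = 0.00632) and missed the threshold after median scaling (adjusted p = 0.152). Lipe, hormone-sensitive lipase, did not pass in either genotype. G0s2, another inhibitor of the Pnpla2 product, was listed at 0 in 10 of 12 libraries and reached 0.507 TPM in Pim1-/- PBS 3.

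The Nceh1 window, one of 5 member windows with the E-box CACGTG (12.5% of 40, against 7.15% of all windows), is shown as the window of the lipolysis gene that fell most; the capitals mark the E-box, 26 bases before the start.
Nceh1, chr3:27182754-27183053, plus strand: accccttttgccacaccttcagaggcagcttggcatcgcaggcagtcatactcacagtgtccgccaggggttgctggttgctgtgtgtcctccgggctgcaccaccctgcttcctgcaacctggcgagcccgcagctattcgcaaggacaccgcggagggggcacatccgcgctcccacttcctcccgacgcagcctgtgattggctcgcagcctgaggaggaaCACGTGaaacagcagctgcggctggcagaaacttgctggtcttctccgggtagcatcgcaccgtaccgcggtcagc
The other 4 windows with that E-box belonged to Elovl5, Plin2, Lipe and Mgll, of which Elovl5 fell in both genotypes, Mgll fell in WT, and Plin2 and Lipe did not pass.

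In mitochondrial oxidation, 3 of 7 tested genes fell with oxLDL in WT (27% of all tested genes) and 1 in Pim1-/- (7.8% of all), and none rose. After median scaling 1 fell in WT and none in Pim1-/-, so that with 7 genes these counts do not set the group apart from the rest. Acadm, the medium-chain acyl-CoA dehydrogenase, stood at 64.4, 54.7 and 94.5 TPM (WT PBS), 10.8, 13.2 and 23.0 (WT oxLDL), 38.1, 58.3 and 21.7 (Pim1-/- PBS) and 13.1, 12.6 and 13.6 (Pim1-/- oxLDL). It changed by -2.14 (SE 0.43, adjusted p = 0.00227) in WT and -1.41 (SE 0.43, adjusted p = 0.0441) in Pim1-/-, and the latter call was lost in 8 of 12 fits without 1 library, with adjusted p of up to 0.181 without Pim1-/- PBS 2, and after median scaling (adjusted p = 0.162). Hadhb, a subunit of the trifunctional protein that carries out the last steps on long chains, stood at 122, 121 and 124 TPM (WT PBS), 14.7, 22.5 and 58.8 (WT oxLDL), 63.3, 119 and 32.1 (Pim1-/- PBS) and 18.6, 23.5 and 30.8 (Pim1-/- oxLDL). It changed by -2.14 (SE 0.52, adjusted p = 0.00787) in WT and -1.36 (SE 0.52, adjusted p = 0.110) in Pim1-/-. Acadvl, the very-long-chain dehydrogenase, stood at 81.1, 70.6 and 56.0 TPM (WT PBS), 14.1, 22.0 and 42.3 (WT oxLDL), 32.4, 85.7 and 28.1 (Pim1-/- PBS) and 19.9, 20.4 and 25.3 (Pim1-/- oxLDL) and shares exon bases with Dvl2. It changed by -1.49 (SE 0.47, adjusted p = 0.0275) in WT, a call lost without WT PBS 1 (0.0871), WT PBS 2 (0.0711), WT oxLDL 1 (0.122) or WT oxLDL 2 (0.0755), and by -0.95 (SE 0.47, adjusted p = 0.211) in Pim1-/-. After median scaling Acadm was the only one of these 3 that passed in WT (-1.25, adjusted p = 0.0287). Cpt1a and Cpt2, the carnitine shuttle of the mitochondrial membranes, Acadl and Hadha did not pass in either genotype; Acadl changed by -0.11 in WT and 0.27 in Pim1-/-. Pdk4, an inhibitor of pyruvate dehydrogenase, reached 1 TPM in WT oxLDL 1 alone (1.66 TPM).

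Hadha and Hadhb lie head to head on chromosome 5, with the starts of their RefSeq windows 273 bases apart, so that their windows share 228 bases. The Hadhb window is shown for this shared stretch; no capitals are used because it holds none of the motifs searched.
Hadhb, chr5:30155003-30155302, plus strand: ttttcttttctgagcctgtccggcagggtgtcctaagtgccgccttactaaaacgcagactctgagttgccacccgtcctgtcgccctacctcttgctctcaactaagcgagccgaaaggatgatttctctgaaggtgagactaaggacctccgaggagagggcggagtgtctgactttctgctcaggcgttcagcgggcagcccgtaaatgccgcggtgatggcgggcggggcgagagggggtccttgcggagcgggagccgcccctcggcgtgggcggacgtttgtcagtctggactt
Hadha, the other subunit, stood at 98.2, 98.4 and 36.3 TPM (WT PBS), 17.7, 27.6 and 56.5 (WT oxLDL), 30.0, 73.7 and 30.1 (Pim1-/- PBS) and 24.0, 21.7 and 26.4 (Pim1-/- oxLDL), and is named here after its values were seen. Its change was -1.19 (SE 0.52, adjusted p = 0.0892) in WT, with WT PBS 3 inside the range of the oxLDL libraries, whereas Hadhb was at 121 to 124 TPM in all WT PBS libraries.

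**Figure D4:**
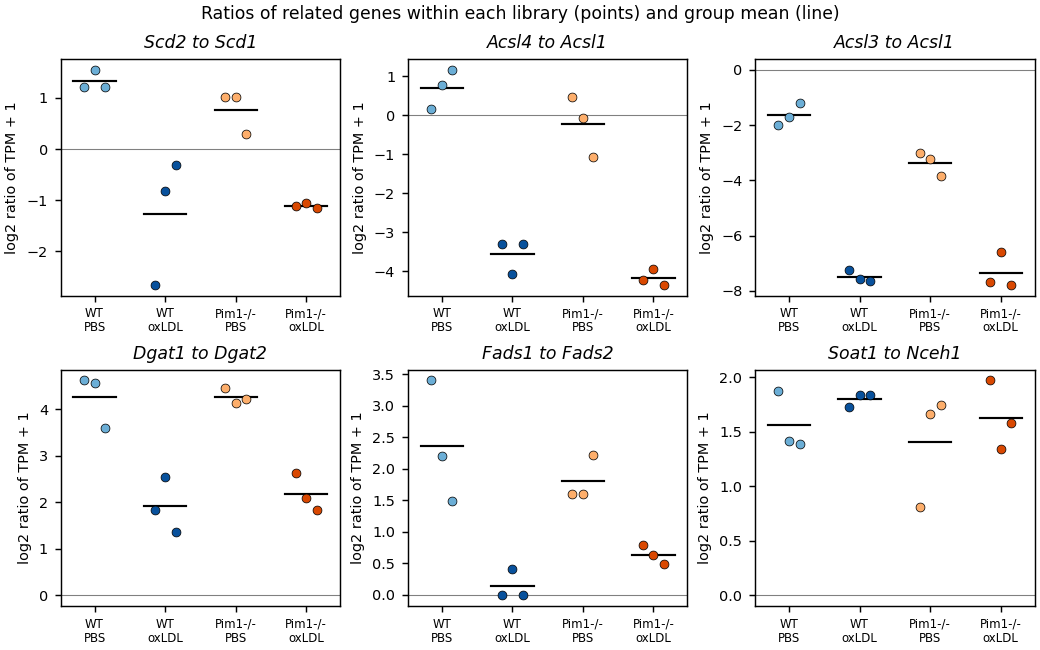
Log2 ratio of TPM + 1 (y axis) of 6 pairs of related genes within each library (points; lines are group means), which does not depend on library scaling up to the added 1. The added 1 weighs heavily where a gene is near or below 1 TPM, as Dgat2 in PBS and Acsl3 in oxLDL, and such ratios still depend on scaling. Scd2 to Scd1, Acsl4 to Acsl1, Acsl3 to Acsl1, Dgat1 to Dgat2 and Fads1 to Fads2 are lower in the oxLDL groups of both genotypes, while Soat1 to Nceh1 lies between 0.81 and 1.97 in all 12 libraries.

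Loss of Pim1 went with lower Lpl, Pparg, Lipa and Acss2 and higher Fabp5 and Hilpda when both treatments were averaged. These 4 falls and 2 rises among 39 were called by the averaged contrast, close to its shares over all tested genes (8.21% lower and 2.94% higher). None of these calls was kept in all 12 fits without 1 library. After median scaling the averaged contrast called 2 lower and 3 higher (4.03% and 4.65% of all). In PBS alone, none of the 39 was called, beside 4.06% of all tested genes called lower and 0.611% higher, and 13 were at an unadjusted p under 0.05 by limma, beside 28.2% of all tested genes; quantile normalization called 1 higher (Hilpda) and median scaling none (0.0318% of all genes lower and 0.0238% higher). In oxLDL alone none was called either, with 6 at an unadjusted p under 0.05 (10.9% of all tested genes) and none under quantile normalization (0% of all genes were called lower and 0.00794% higher). The difference between the oxLDL responses of the genotypes gave 0 calls, 1 (Fads1) at an unadjusted p under 0.05 (3.03% of all tested genes) and none under quantile normalization (0.00794% of all genes higher, 0% lower). Values of 1 comparison that pass while the other does not are not shown to differ between treatments.

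On deposited TPM Lpl had the largest called difference between genotypes; after median scaling that of Fabp5 was larger. Averaged over treatments it was -1.68 (SE 0.36, adjusted p = 0.0145), and all 6 Pim1-/- libraries lay below the WT libraries of the same treatment. The difference was -1.81 (SE 0.51, adjusted p = 0.0578) in PBS and -1.55 (SE 0.51, adjusted p = 0.360) in oxLDL. Without WT oxLDL 2, which like WT oxLDL 3 was nearest to a Pim1-/- library, Lpl in oxLDL was called (-2.15, adjusted p = 0.0313). Of the 12 fits without a single library, only this 1 called Lpl in oxLDL. Its averaged call was lost without Pim1-/- oxLDL 3 (0.0504). Pparg was -1.26 (SE 0.32, adjusted p = 0.0269) averaged, -1.54 (SE 0.46, adjusted p = 0.0662) in PBS and -0.98 (SE 0.46, adjusted p = 0.458) in oxLDL, where its level was near 1 TPM. After median scaling both remained called in the averaged contrast, Lpl at -1.33 (adjusted p = 0.0374) and Pparg at -1.04 (adjusted p = 0.0428). The call of Pparg was lost without WT oxLDL 3 (0.0660), Pim1-/- PBS 1 (0.0677), Pim1-/- PBS 3 (0.0648), Pim1-/- oxLDL 2 (0.0703) or Pim1-/- oxLDL 3 (0.0843). Lipa was -1.45 (SE 0.37, adjusted p = 0.0265) averaged and -1.10 (adjusted p = 0.0548) after median scaling, and Acss2 -1.26 (SE 0.34, adjusted p = 0.0329) and -1.03 (adjusted p = 0.0600). Both were thus no longer called after median scaling. Leaving out 1 library ended the call of Lipa in 9 of 12 fits (adjusted p of up to 0.0754, without Pim1-/- oxLDL 2) and that of Acss2 in 7 (up to 0.0921, without the same library).

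Fabp5 was 1.35 (SE 0.37, adjusted p = 0.0333) averaged, 1.23 (SE 0.52, adjusted p = 0.146) in PBS and 1.48 (SE 0.52, adjusted p = 0.360) in oxLDL, with every Pim1-/- library above every WT library of the same treatment. Hilpda was 0.99 (SE 0.28, adjusted p = 0.0397) averaged, 1.44 (SE 0.40, adjusted p = 0.0540) in PBS, where the groups did not overlap, and 0.54 (SE 0.40, adjusted p = 0.729) in oxLDL, where they did. Both were called after median scaling, at 1.70 (adjusted p = 0.0382) for Fabp5 and 1.33 (adjusted p = 0.0389) for Hilpda, and Angptl4 was then called too (1.15, adjusted p = 0.0365, against 0.83 (SE 0.33, adjusted p = 0.109) on deposited TPM). Each of the 2 calls was lost in 8 of 12 fits that left out 1 library, with adjusted p of up to 0.0985 for Fabp5 and 0.11 for Hilpda, both without Pim1-/- oxLDL 2. Fabp4 was 1.05 (SE 0.39, adjusted p = 0.0864) averaged and did not pass.

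Counting members whose groups did not overlap, in PBS 14 were lower and 2 higher in Pim1-/- (21.1% and 6.62% of all tested genes), and in oxLDL 7 were lower and 2 higher (13% and 6.88% of all). Pparg, Lpl, Acss2 and Lipe were lower without overlap in both treatments and Fabp5 was higher in both; over all genes 7.17% were lower and 2.04% higher in both. After median scaling these were Pparg, Lpl and Acss2 lower, and Angptl4 and Elovl1 higher (4.35% and 3.31% of all). The genotype comparison in PBS depended on single libraries in both directions. Over all tested genes 511 of 12594 were called lower. This went to 2 without WT PBS 1, 1 without WT PBS 2, 96 without Pim1-/- PBS 1 and 3 without Pim1-/- PBS 3. It was 887 without WT PBS 3. Pim1-/- PBS 2 had Pparg and Lpl values between those of the other Pim1-/- PBS libraries and WT PBS. Without Pim1-/- PBS 2, 7 members were called lower and 2 higher, and the shares of all tested genes went to 11.4% lower and 2.34% higher. The lower 7 were Pparg, Lpl, Acss2, Elovl5, Fads1, Acsl3 and Lipa and the higher 2 were Fabp4 and Hilpda, from -2.18 for Lpl (adjusted p = 0.0345) to 1.70 for Fabp4 (adjusted p = 0.0491). In the averaged contrast, leaving out this library gave 8 lower (15.8% of all tested genes). Over all tested genes, the share called lower in the averaged contrast ran from 2.25% to 15.8% over the 12 fits without 1 library, and the share higher from 0.223% to 6.63%. The count lower was 0 without Pim1-/- oxLDL 3, 1 without WT oxLDL 3, Pim1-/- PBS 1, Pim1-/- PBS 3 or Pim1-/- oxLDL 2, and 2 without WT oxLDL 1 or Pim1-/- oxLDL 1. The count higher was 1 without WT oxLDL 1 or Pim1-/- oxLDL 1 and 0 without WT PBS 1, WT PBS 2, WT oxLDL 3, Pim1-/- PBS 1, Pim1-/- PBS 3, Pim1-/- oxLDL 2 or Pim1-/- oxLDL 3. Without WT PBS 3 and WT oxLDL 2 together, the averaged contrast called 7 members lower and 3 higher, near the shares of all tested genes (16.6% and 9.45%), and the PBS contrast called Lpl, Acsl3 and Lipa lower (8.05% of all). Summed TPM of 5 fibroblast markers ran from 301 to 675 in WT PBS, 347 to 1070 in WT oxLDL, 656 to 1935 in Pim1-/- PBS and 494 to 1118 in Pim1-/- oxLDL. Col1a1 was the largest part of each sum, and not all markers followed it. Dcn stood at 26.7, 47.2 and 28.7 TPM in WT PBS and 50.7, 57.4 and 16.1 in Pim1-/- PBS. Pdgfra stood at 21.3, 36.8 and 12.7 TPM in WT PBS and 22.5, 29.3 and 13.3 in Pim1-/- PBS. The part of fibroblast RNA in the genotype differences was not tested.

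**Figure D5:**
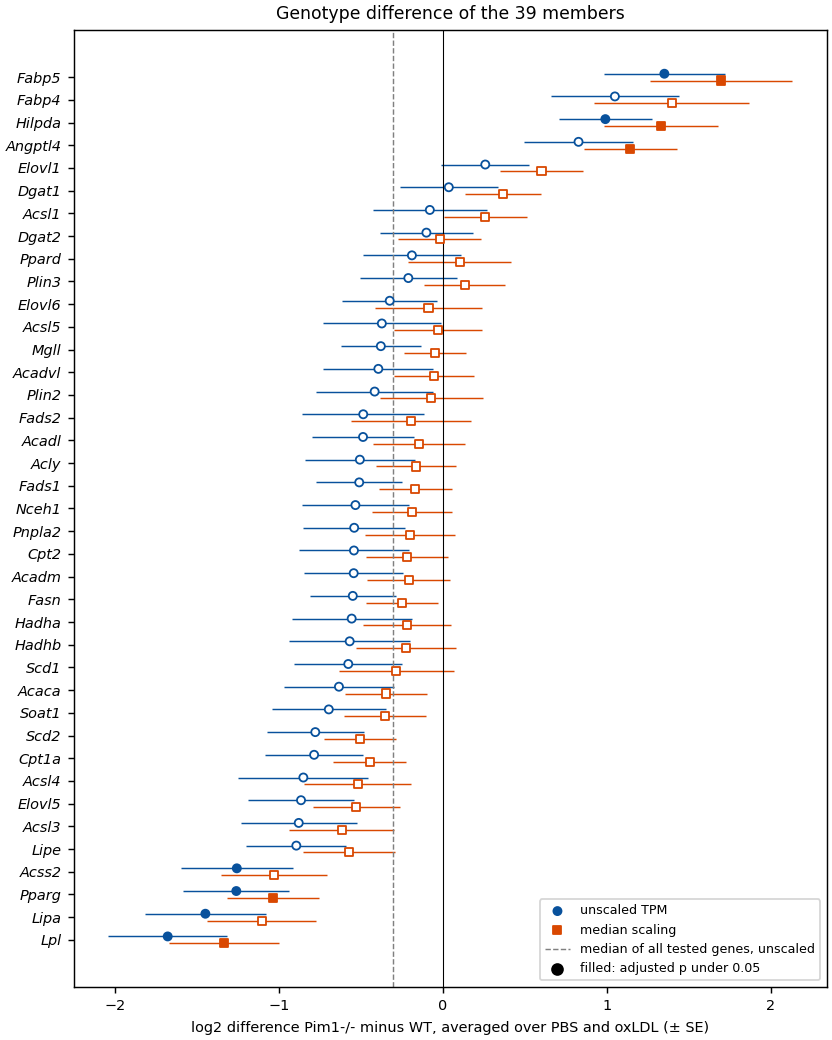
Log2 difference of Pim1-/- minus WT averaged over PBS and oxLDL (x axis, with SE) for the 39 members (y axis), on deposited TPM (circles) and after median scaling (squares); filled symbols passed the adjusted p of 0.05. Lpl, Pparg, Lipa and Acss2 lie lowest and Fabp5 and Hilpda are filled on the right; the dashed line is the median of all genes.

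A further 125 genes of the same pathways, listed with earlier results of these data known, gave a wider view: 123 were found and 92 tested. With oxLDL 44 of the 92 fell and 2 rose in WT, and 12 fell and 2 rose in Pim1-/-, with medians of -1.16 and -0.76; over all tested genes 27% fell and 5.83% rose in WT, and 7.8% and 4.45% in Pim1-/-. After median scaling these were 17 and 7 in WT, where 8.18% of all genes fell and 12.2% rose, and 7 and 2 in Pim1-/-, where 4.39% fell and 6.91% rose. The rises were thus no more frequent than over all genes on either scale. On deposited TPM the genes that rose were Fabp3 and Acot7 in both genotypes; after median scaling Slc25a1, Acot8, Npc2, Acaa1a and Etfa were also called higher in WT. Fabp3, a fatty acid chaperone best known from heart muscle, went from 9.71 ± 9.36 to 218 ± 167 TPM (SD, n = 3) in WT and from 11.6 ± 6.32 to 509 ± 77.0 TPM in Pim1-/-, a change of 4.39 (SE 0.70, adjusted p = 0.000529) and 5.45 (SE 0.70, adjusted p = 0.000138), against falls of Fabp4 in the same comparisons. Acot7, a thioesterase that frees fatty acids from coenzyme A, changed by 2.06 (SE 0.33, adjusted p = 0.000573) and 1.52 (SE 0.33, adjusted p = 0.00833). Lpin1, a phosphatidate phosphatase of triglyceride synthesis, changed by -3.76 (SE 0.44, adjusted p = 4.20e-05) and -2.61 (SE 0.44, adjusted p = 0.00141). Npc1, which exports cholesterol from lysosomes, went from 269 ± 122 to 29.2 ± 9.74 TPM in WT (-3.07 (SE 0.47, adjusted p = 0.000397)) and changed by -1.99 (SE 0.47, adjusted p = 0.0134) in Pim1-/-. Daglb, a diacylglycerol lipase, changed by -3.69 (SE 0.49, adjusted p = 0.000116) and -2.37 (SE 0.49, adjusted p = 0.00585), and Acox3, a peroxisomal oxidase, by -3.07 (SE 0.41, adjusted p = 0.000114) and -2.15 (SE 0.41, adjusted p = 0.00308). Of 33 tested genes of oxidation on this list 22 fell in WT and 6 in Pim1-/- (9 and 4 after median scaling). The shares over all genes were lower, at 27% and 7.8% (8.18% and 4.39% after median scaling), a comparison given with no test. Of 14 of synthesis 3 and 1 fell, a share no higher than the 27% and 7.8% over all genes.

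Between genotypes, 5 of the 92 were called lower in PBS and none after median scaling, none was called in oxLDL, and 9 were lower and 2 higher in the averaged contrast. These counts are close to the shares over all tested genes, of which 4.06% were lower in PBS and, in the averaged contrast, 8.21% lower and 2.94% higher. Rxrb, a retinoid X receptor of the kind PPARs pair with, was -1.56 (SE 0.34, adjusted p = 0.0264) in PBS. Mlxip, a glucose-responsive transcription factor, was -1.93 (SE 0.37, adjusted p = 0.00971) averaged over treatments. Dbi, the acyl-CoA binding protein, was 1.85 (SE 0.43, adjusted p = 0.0193), and Hacd1, a dehydratase of chain elongation, was 1.86 (SE 0.54, adjusted p = 0.0407). Mlxip, Dbi and Hacd1 were also called after median scaling, whereas Rxrb in PBS was not (adjusted p = 0.101).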

How the data were processed

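RNA from 12 libraries was measured. Per the labels' protocols, RNA was column-purified, its quality was read on a Bioanalyzer, and stranded mRNA libraries were sequenced on an Illumina HiSeq instrument. The authors deposited 1 table of TPM per gene for all libraries; the submitters' processing notes name Salmon, DESeq2 and mm10 without versions, and neither what DESeq2 was used for nor the annotation is given in the sources used here. Depth is unknown from TPM, so no counting interval is given.

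Values were analysed as log2(TPM + 1). The 12594 genes that reached 1 TPM in 3 libraries or more were fitted with limma 3.58.1 in R 4.3.3 (4 group means, all 12 libraries, 8 residual degrees of freedom, empirical Bayes with trend). Adjusted p-values are Benjamini-Hochberg over all tested genes in each contrast, called under 0.05; 3 against 3 libraries in an exact two-sided permutation test could not go below 0.1. Rises and falls are these calls. Members and gene lists were chosen with earlier results of these data known. Values in every library are given for members called in any contrast, at most 4 per role in order of the change, and for the PPAR genes; up to 2 other pathway genes per role and direction with a mean TPM of at least 5 were eligible. Positions are from GENCODE M21, promoter windows from RefSeq (GRCm38.p6), motifs from a search of both strands. Alternatives were other pseudocounts and filters, median scaling, quantile normalization, rescaling without the ribosomal rows Rn45s and Mir6236, no trend, only the compared groups, a block for the replicate number and leaving out single libraries. Leaving out WT PBS 3 and WT oxLDL 2 together, alone or with median scaling, and median scaling with a block, were chosen after seeing the data.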

Additional observations from a re-analysis of the deposited data

How the results depend on the processing

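Members called, as counts out of 39, with counts over all tested genes in parentheses. The latter are of 12594 genes unless given, and of 12348 to 12554 without single libraries. With oxLDL in WT, 20 were lower (3403). This was 10 with median scaling (1030) and 8 with median scaling and a replicate block (830). It was 8 with median scaling and WT PBS 3 and WT oxLDL 2 left out (694 of 12410). When each library was left out in turn, 15 to 23 were lower (2015 to 4357), with 3 higher in every such fit (591 to 754). With oxLDL in Pim1-/-, 2 were higher (560). This was 1 with a pseudocount of 0.1 or 5 (509 or 537) or with a replicate block (471). It was also 1 with no filter (489 of 20084) or with a filter of 5 TPM (509 of 10006), and 1 to 2 without single libraries (383 to 663). Lower were 11 (982), 6 with median scaling and a replicate block (417), and 6 to 13 without single libraries (304 to 1647). The knockout in PBS had 0 higher (77). This was 1 with a pseudocount of 5 (120), quantile normalization (329), or median scaling without both libraries (159 of 12410). Without single libraries it was 0 to 2 (0 to 291). Lower were 0 (511), 5 with a pseudocount of 5 (843), 2 with a filter of 5 TPM (526 of 10006), and 3 without both libraries (999 of 12410). Without single libraries 0 to 7 were lower (1 to 1417). The knockout in oxLDL had 0 higher (1), and 1 higher without both libraries (494 of 12410). Lower were 0 (0), 2 without both, unscaled or median scaled (346 or 202 of 12410), and 0 to 1 without single libraries (0 to 141). Averaged over treatments, 2 were higher (370). This was 0 with no filter (56 of 20084), with a replicate block (192), or with a block and median scaling (100). It was 5 with median scaling without both libraries (1764 of 12410), and 0 to 3 without single libraries (28 to 830). Lower were 4 (1034), 0 with no filter (461 of 20084), 2 with median scaling (507), and 7 without both libraries (2056 of 12410). With a block and median scaling 0 were lower (243), and without single libraries 0 to 8 (283 to 1970). Of the other pathway genes, median scaling took the counts with oxLDL in WT from 2 to 7 higher and from 44 to 17 lower, in Pim1-/- from 12 to 7 lower, in PBS from 5 to 0 lower, and averaged from 9 to 2 lower. Over all tested genes these went from 734 to 1539, 3403 to 1030, 982 to 553, 511 to 4 and 1034 to 507, in that order. The cause of these moves was not tested. Acss2 with oxLDL in WT turned from -1.39 to 0.18 (adjusted p = 0.772) under median scaling without both libraries. Of 5760 values of single genes under an alternative, 5494 kept their direction and side of the threshold where a call was involved, 179 were weaker, 86 stronger and 1 reversed; 207 uncalled values changed sign. No pairing by replicate number was seen in deviations from the group means. Their correlations between same-numbered libraries ran from -0.51 to 0.16, and 1 of 12 libraries correlated best with its own number. With 3 libraries a group, whose deviations sum to 0, this cannot decide whether same-numbered libraries shared an origin. Unknown depth limits what can be said of members near 1 TPM, such as Dgat2, Acsl3 and Pparg in oxLDL. Acsl3 and Elovl6 reached the 3 libraries of the filter only with their PBS libraries, where they were higher.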

Other observations

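The rank of a member among the 24279 rows of a library does not depend on the scaling of that library. Lpl was among the most abundant rows in WT PBS, at ranks 24, 21 and 28, and stood at 294, 346 and 344 in Pim1-/- oxLDL. Plin2 went from ranks 29, 44 and 26 in WT PBS to 147, 182 and 66 in WT oxLDL. Acsl1 moved the other way, from 2758, 2789 and 5586 to 431, 367 and 198. The summed TPM of all 42 genes came to 12044, 11089.5 and 10149 for the WT PBS libraries, 3896, 3122 and 6307 after oxLDL, and 8019, 9696 and 5939 and 2922, 3212 and 3287 in the Pim1-/- groups. Activation was the only role whose summed TPM was higher in mean with oxLDL, at 213 and 520.5 TPM in WT and 152 and 386 TPM in Pim1-/-, given with no test. In WT only Acsl1 of the synthetases was higher in mean, at 42.0 and 400 TPM, while Acsl3, Acsl4 and Acsl5 were lower. In Pim1-/- Acsl1 (44.5 and 296 TPM) and Acsl5 (61.7 and 73.9 TPM) were higher, while Acsl3 and Acsl4 were lower.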
